A study of Danio rerio with 4 samples.

Results

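The genes described here encode the subunits of potassium, calcium and sodium channels in cardiac endothelial cells of the adult zebrafish during heart regeneration. They were taken by symbol. A gene belonged to the set when its symbol, in either case, began with *kcn*, a letter and a digit, with *cacna*, *cacnb* or *cacng*, or with *scn* and a digit, and when it had at least 10 reads over the 4 RNA-seq libraries. Of the 32520 genes counted, 176 carried such a symbol and 80 reached the minimum. These were 53 potassium, 20 calcium and 7 sodium channel genes. Where the identifier had only a human-style symbol that several zebrafish copies can share, the symbol is printed in capitals, and its Ensembl identifier is added where the identity would otherwise be unclear.

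The libraries came from *kdrl:eGFP*-positive cells sorted from ventricles at 7 days post-amputation (dpa), with 2 biological replicates per group. Fish of both groups were adult and carried *ubi:loxp-DsRed-STOP-loxp-DN-xBrg1* and *kdrl:eGFP*. Both received 4-hydroxytamoxifen (4-HT), for 3 days according to the labels, before the ventricle was amputated. The methods of the study instead describe a shorter bath, with amputation 3 days after the treatment. CtrlK fish had no further transgene. DNK fish also carried *kdrl:CreER*, so that 4-HT removed the stop cassette and switched on a dominant-negative *Xenopus* form of Brg1, the motor subunit of the SWI/SNF chromatin-remodeling complex, in cells in which the *kdrl* promoter was active. Only DNK cells carried CreER, so an effect of CreER with 4-HT and one of the Brg1 transgene cannot be told apart. The transgene had no row of its own in the counts, and the group labels could not be checked by it. The comparison asks which genes differ between these cells when endothelial Brg1 is inhibited.

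Voltage-gated potassium, calcium and sodium channels open on a change of membrane potential, through a pore-forming subunit whose gating and surface level are set by accessory subunits. Other potassium channels stay open near rest, namely the inward rectifiers and the K2P channels, whose subunits carry a pair of pore domains, or open when calcium rises in the cell. Endothelial cells as a rule are not excitable and use potassium channels to hold the membrane potential that drives calcium entry, whereas cardiomyocytes, neurons and smooth muscle cells depend on voltage-gated calcium or sodium channels.

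The libraries held between 25189862 and 28770727 counted reads, and 3 reads corresponded to between 0.104 and 0.119 CPM (reads scaled to the library total). This detection limit covers counting error only. Endothelial markers were present in all libraries. The 8 markers found summed to between 4644 and 5015 CPM in CtrlK and between 4880 and 4901 CPM in DNK. Called lower were 3 of the 8 (*kdrl*, *pecam1* and *egfl7*) and called higher was 1 (*vwf*), against 4.23% and 4.22% of all tested genes. Of the 8 log2 fold changes, 7 were below 0 and 1 above. The sums include *vwf*, with a mean normalized count of 22883 in CtrlK and 38869 in DNK, so level sums do not mean level markers. The gene *kdrl*, whose promoter drives both the sort marker and CreER, had a log2 fold change of -0.47 (SE 0.07, adjusted p = 0.011 in edgeR's quasi-likelihood test). RNA of other cells was also present. The summed cardiomyocyte markers lay between 4424 and 13626 CPM in CtrlK and between 182 and 1379 CPM in DNK, and the CtrlK1 library stood apart with the highest value. In sorted bulk samples, fewer cells of a type and less RNA per cell cannot be told apart. The p-values rest on the spread between 2 libraries in each group, moderated by the spread over all tested genes. In the fits that left out a library, a gene's own spread came from the other group alone, moderated in the same way. The lone library was assumed to vary like that group.

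Few channel genes gave many reads in the sorted cells. Of the 176 genes with a matching symbol, 59 had no read in any library and 37 had between 1 and 9. Among the 80 retained genes, 9 had at least 1000 reads in all, 30 had at least 100, and 50 had fewer than 100. Reads were seen in every library for 32 genes and in only 1 library for 8. Of the calcium channel pores 5 of 18 genes were retained, and of the inward rectifiers 16 of 29, most of the latter with too few reads for a test. By comparison, 6 of 8 genes of the KCNQ family and 4 of 5 genes of the *kcng* family were retained.

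**Figure D1:**
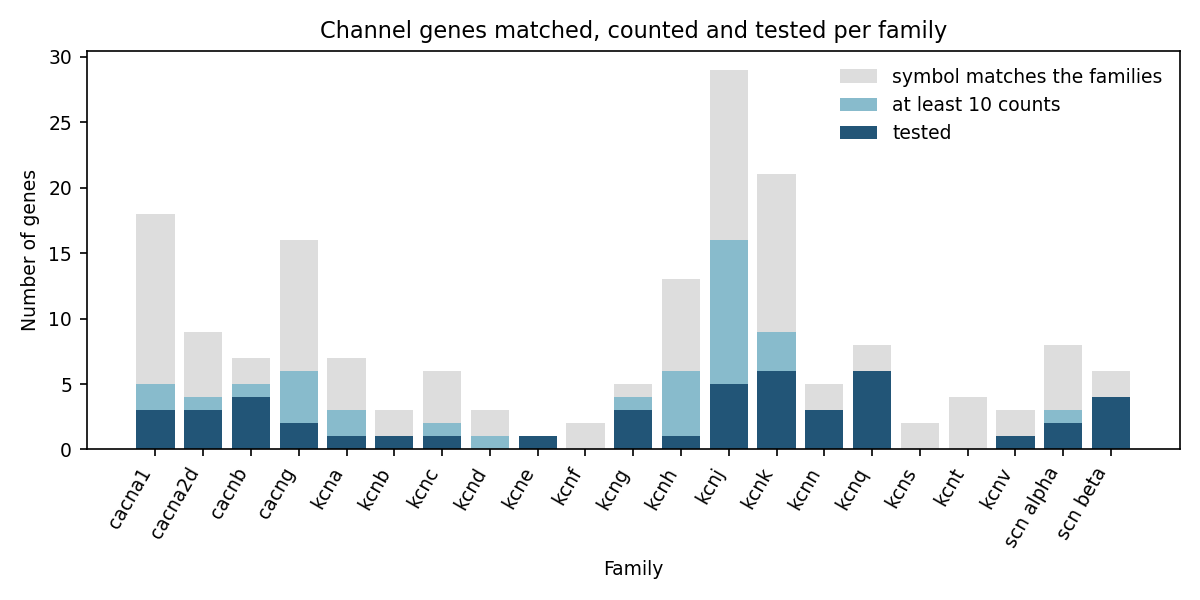
Number of genes per channel family, with the genes whose symbol matches the family (grey), those with at least 10 reads over the 4 libraries (light blue) and those that entered the test (dark blue), each drawn from 0. The inward rectifiers (*kcnj*) had 29 matching genes, 16 retained and 5 tested.

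Between the groups, 8 channel genes of different classes differed. In DNK, the modifier subunits *kcng1* and *kcng3* and the K2P channel gene *kcnk1a* were higher. The potassium channel accessory subunit *kcne4*, the sodium channel genes *scn4ba* and *SCN10A*, and the calcium channel pores *cacna1c* and *cacna1aa* were lower. No gene of the *kcnj*, *kcnq*, *kcnh* or *kcnn* families passed the test, and none of the calcium channel accessory subunits did.

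Of the 80 genes, 47 had enough reads for edgeR's quasi-likelihood test, run on both directions with Benjamini-Hochberg adjustment over all 17151 tested genes. At an adjusted p under 0.05, 3 of the 47 (6.38%) were called higher in DNK and 5 (10.6%) lower, where 4.22% and 4.23% of all tested genes were called higher and lower, and 8.45% in either direction. DESeq2 called 4 and 6 of the 47, where it called 7.41% and 8.35% of all tested genes. At an unadjusted p under 0.05, 5 were higher and 8 lower. The share of all tested genes at this unadjusted level was not computed, here or for the counts by class and family below. The share of all tested genes called in the fits that left out a library was not computed either. The median log2 fold change of the 47 genes was -0.27, against -0.02 over all tested genes, with 22 values above 0 and 25 below. Each DNK library exceeded each CtrlK library in 13 genes (27.7%) and fell short of each in 14 (29.8%), close to the 26.9% and 28.6% of all tested genes, and the groups overlapped for the other 20. When single libraries were left out, *kcng1*, *kcne4* and *scn4ba* stayed called in all 4 such fits, and the number called was between 1 and 2 higher and between 2 and 5 lower. The 5 lower genes without DNK2 included a copy of *KCNK5* in place of *cacna1aa*.

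The calls by class are small numbers, to be set against the 4.22% and 4.23% of all tested genes called higher and lower. The 29 tested potassium channel genes had 3 called higher (10.3%) and 1 lower (3.45%), with a median log2 fold change of 0.09. The 12 calcium channel genes had 0 called higher and 2 lower (16.7%), with a median of -0.43. At an unadjusted p under 0.05, 1 calcium channel gene was higher and 4 lower. The 6 sodium channel genes had 0 called higher and 2 lower (33.3%), with a median of -1.35, and the numbers at an unadjusted p under 0.05 were the same.

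**Figure D2:**
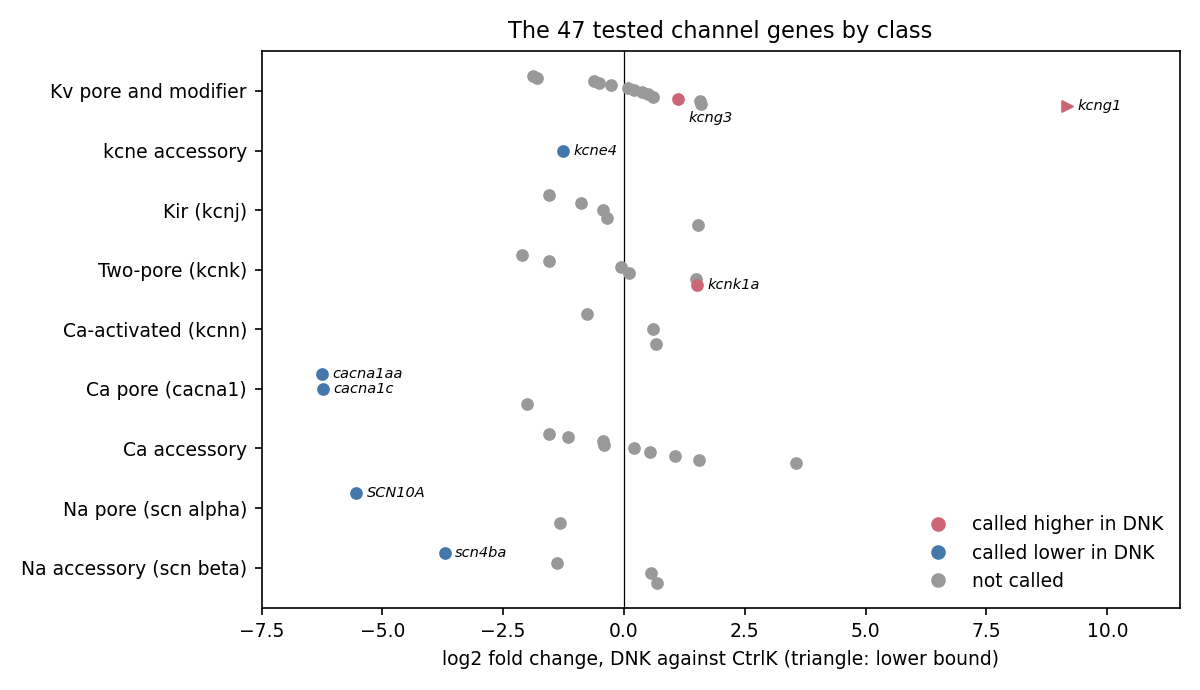
Log2 fold change (DNK against CtrlK, edgeR) of each of the 47 tested channel genes, 1 point per gene, by class of subunit, with genes called higher in DNK in red, called lower in blue and not called in grey. The triangle of *kcng1* is a lower bound, since it had no read in CtrlK. The 3 tested calcium channel pores lie below 0, and 2 pores with more reads in DNK were not tested.

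**Figure D3:**
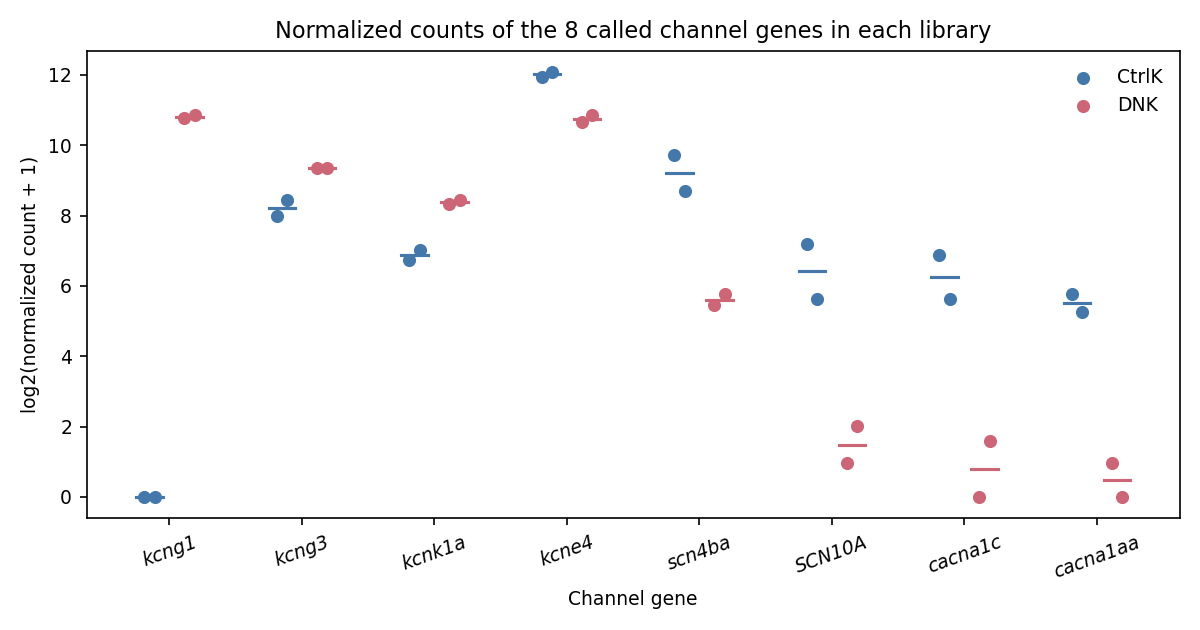
Normalized counts of the 8 called channel genes on a log2 scale after adding 1, with a point for each library, CtrlK in blue and DNK in red, and a bar at the mean of the 2 log2 values. The points of the groups do not overlap for any of the 8 genes, and *kcng1* lies at 0 in both CtrlK libraries.

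Among the voltage-gated potassium channels, *kcng1* had the largest log2 fold change. The *kcng* genes encode modifier subunits, which in mammals form no working channel alone and join pore subunits of the KCNB family. Of the 4 *kcng* genes retained, 2 were called higher in DNK, 1 was tested and not called, and 1 had too few reads for the test. Of all tested genes, 4.22% were called higher. The gene *kcng1* (ENSDARG00000099038) had 0 reads in both CtrlK libraries, 1872 in DNK1 and 1827 in DNK2. It was thus undetected in one group and gave nearly equal numbers in both libraries of the other. It passed the read filter only through DNK. Its normalized count in DNK was 1794 ± 64.2 (SD, n = 2), at least 573-fold higher than the limit of 3 reads per library in CtrlK (edgeR adjusted p = 5.8e-05).

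The gene *kcng3* (ENSDARG00000061622) had 221 and 371 reads in CtrlK and 695 and 650 in DNK. The groups did not overlap, and the CtrlK libraries differed more from each other than the DNK libraries did. The normalized counts were 301 ± 66.8 and 652 ± 3.68 (SD, n = 2 each), a 2.16-fold rise (log2 fold change 1.11, SE 0.24, edgeR adjusted p = 0.034). The call was kept only without CtrlK2 among the 4 fits that left out a library (adjusted p = 0.046, and between 0.098 and 0.13 in the other fits), with log2 fold changes between 0.91 and 1.36. A further family member, *kcng2*, gave 692 and 835 reads in CtrlK and 961 and 776 in DNK, and its normalized counts differed by little (log2 fold change 0.09, SE 0.17, adjusted p = 0.82). *KCNG4* had 0 reads in CtrlK and 10 and 14 in DNK, at least 3.74-fold higher, and was not tested.

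The partners of the modifier subunits were sparse in both groups. Of the 3 genes of the KCNB family, *kcnb2a* was the only one retained, with 93 and 54 reads in CtrlK and 52 and 61 in DNK. The groups overlapped and the gene was not called (log2 fold change -0.51, SE 0.61, adjusted p = 0.69).

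The accessory subunit gene *kcne4* (ENSDARG00000068257) gave 11617 reads over the 4 libraries, more than any other channel gene, without correction for gene length. Its product is a single-pass membrane protein that in mammals inhibits KCNQ1 and some other voltage-gated potassium channels. It had 3450 and 4615 reads in CtrlK and 1726 and 1826 in DNK. The DNK libraries were close to each other and both lay far below the CtrlK libraries. The normalized count fell from 4146 ± 262 to 1725 ± 160 (SD, n = 2 each), 2.40-fold lower in DNK (log2 fold change -1.26, SE 0.12, edgeR adjusted p = 0.0016). Each fit that left out a library kept the call, with log2 fold changes between -1.36 and -1.17.

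None of the 6 KCNQ genes, whose products form slowly activating channels, was called. The gene *kcnq5a* had the most reads of the family, with 506 and 626 in CtrlK and 862 and 834 in DNK. The groups did not overlap, but the difference did not pass the test (log2 fold change 0.49, SE 0.17, adjusted p = 0.14). The copy *KCNQ5* (ENSDARG00000069953) had 42 and 17 reads in CtrlK and 76 and 122 in DNK (log2 fold change 1.60, SE 0.73, adjusted p = 0.24). The gene *kcnq1.1*, of the KCNQ1 family of pores that repolarize the mammalian heart, had 125 and 25 reads in CtrlK and 48 and 0 in DNK, and its groups overlapped (log2 fold change -1.88, SE 1.79, adjusted p = 0.61). This value was carried by single libraries, at -0.06 without CtrlK1 and -9.35 without DNK1.

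Of the 6 KCNH genes only *kcnh6a*, the pore of the rapid delayed rectifier current of the zebrafish heart, was tested. It had 250 and 89 reads in CtrlK and 44 and 65 in DNK. All of the CtrlK values were higher than the DNK values, but the CtrlK libraries were far apart, with a normalized count of 185 ± 144 against 53.3 ± 17.2 (SD, n = 2 each). The difference was not called (log2 fold change -1.79, SE 0.65, edgeR adjusted p = 0.15), and without CtrlK1 the log2 fold change was -0.65. The other 5 KCNH genes had between 12 and 35 reads in all.

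The remaining voltage-gated potassium channel genes had few reads or groups that overlapped. The gene *kcnc4*, a rapidly opening and inactivating channel in mammals, had 269 and 391 reads in CtrlK and 348 and 233 in DNK (log2 fold change -0.27, SE 0.29, adjusted p = 0.64). The gene *kcna6a* had 25 and 0 reads in CtrlK and 4 and 29 in DNK. The modifier *kcnv1* had reads in 1 library of each group, 16 in CtrlK1 and 58 in DNK1. Transient outward channels of the KCND family were close to absent from the counts. Of their 3 genes, *kcnd1* had 10 reads in all, and *kcnd2* and *kcnd3* had 0 reads in every library, where the limit is 3 reads per library.

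The K2P channels (*kcnk* genes) carry background currents that hold the resting potential. Of 9 retained genes 6 were tested and 1 was called. The gene *kcnk1a* (ENSDARG00000045067), of the TWIK1 type of weakly inward rectifying channels, had 92 and 137 reads in CtrlK and 340 and 347 in DNK. Both DNK libraries were higher than both CtrlK libraries, and replicates lay close together. Its normalized count rose from 117 ± 16.2 to 334 ± 22.5 (SD, n = 2 each), 2.84-fold (log2 fold change 1.51, SE 0.31, edgeR adjusted p = 0.029). With any library left out, the log2 fold change stayed between 1.38 and 1.66 but the adjusted p lay between 0.074 and 0.13, so that the call needed all 4 libraries.

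Other K2P genes gave fewer reads. The gene *kcnk6*, of the TWIK2 type, had 8 and 28 reads in CtrlK and 55 and 49 in DNK, without overlap and without a call (log2 fold change 1.49, SE 0.87, adjusted p = 0.36). The copies of *KCNK5*, an acid-sensitive background channel, gave different patterns. The copy ENSDARG00000012390 had 49 and 106 reads in CtrlK and 0 and 36 in DNK, with an adjusted p of 0.47. Without DNK2, where the DNK group is the DNK1 library at 0 reads, the adjusted p was 0.029. The copy ENSDARG00000023587 had 21 and 25 reads in CtrlK and 29 and 24 in DNK (log2 fold change 0.11, SE 0.87, adjusted p = 0.96). The gene *kcnk18* had 0 reads in both CtrlK libraries and 55 and 4 in DNK, at least 8.85-fold higher, and was not tested.

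Among the inward rectifiers, 16 genes were retained, 5 were tested and none was called. At an unadjusted p under 0.05 the number was also 0 in each direction. The gene *kcnj13*, which shapes pigment stripes in the zebrafish, had the most reads, with 184 and 200 in CtrlK and 251 and 78 in DNK. Its groups overlapped because of the DNK libraries, which differed from each other (log2 fold change -0.35, SE 0.52, adjusted p = 0.76, and 0.23 on the log2 scale without DNK2). *KCNJ2* (ENSDARG00000019418), whose mammalian counterpart sets the resting potential of many endothelial cells, had 22 and 18 reads in CtrlK and 15 and 0 in DNK (log2 fold change -1.56, SE 1.61, adjusted p = 0.63). The pore genes of channels that close when ATP is plentiful were low as well. The gene *kcnj8* had 35 and 3 reads in CtrlK and 4 and 9 in DNK, and *kcnj11* had 21 and 9 in CtrlK and 7 and 0 in DNK. The 5 copies named *KCNJ1* had between 11 and 37 reads each, and their counts are uncertain if the copies share sequence, since only uniquely mapped reads were counted.

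Of the 5 calcium-activated potassium channel genes of the *kcnn* family, 3 were retained, all 3 were tested and none was called. At an unadjusted p under 0.05 the number was also 0 in each direction. The gene *kcnn1a*, a small-conductance channel, had 166 and 209 reads in CtrlK and 350 and 261 in DNK. The DNK values lay above the CtrlK values, and the difference did not pass the test (log2 fold change 0.61, SE 0.29, adjusted p = 0.26). The gene *kcnn4*, the intermediate-conductance channel that hyperpolarizes mammalian endothelium, had only 8 and 24 reads in CtrlK and 8 and 11 in DNK, and its groups overlapped (log2 fold change -0.77, SE 1.17, adjusted p = 0.76).

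The 3 tested calcium channel pores had a median log2 fold change of -6.22, which is the value of *cacna1c*. Of the 5 genes retained, 2 were not tested (*CACNA1S* and *cacna1ha*), and both had more reads in DNK. Both DNK libraries lay below both CtrlK libraries for each of the 3, against 28.6% of all tested genes. Called lower were 2 of the 3, against 4.23% of all tested genes. These 2 had almost all of their reads in CtrlK and passed the read filter through that group. No trait of the pores is read from these counts. The gene *cacna1c* (ENSDARG00000008398), the pore of the L-type calcium channel that is needed for the beat of the zebrafish heart, had 101 and 52 reads in CtrlK and 0 and 2 in DNK. It was nearly undetected in DNK, and CtrlK1 had more reads than CtrlK2. The ratio of normalized reads was 81.5 (95% counting interval 22.2 to 679) in favour of CtrlK, with normalized counts of 82.4 ± 47.5 and 1.01 ± 1.42 (SD, n = 2 each, edgeR adjusted p = 0.029). Among the fits without a library the call was kept only without DNK2, and the adjusted p was 0.053 without CtrlK2, 0.059 without DNK1 and 0.22 without CtrlK1.

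The gene *cacna1aa* (ENSDARG00000037905), a P/Q-type pore known for transmitter release in neurons, had 47 and 40 reads in CtrlK and 1 and 0 in DNK. The CtrlK libraries were alike, and DNK held a single read. The ratio was 92.7 (95% counting interval 16.2 to 3704), and the adjusted p was 0.039. The call was lost without any 1 of the 4 libraries (adjusted p between 0.058 and 0.24). The T-type pore gene *cacna1g*, known for pacemaking in mammals, had 154 and 73 reads in CtrlK and 34 and 29 in DNK, without overlap. It was not called in edgeR (log2 fold change -2.002, SE 0.64, adjusted p = 0.11), whereas DESeq2 gave an adjusted p of 0.048, and without CtrlK1 the edgeR log2 fold change was -1.16. Of the untested pores, *CACNA1S* (ENSDARG00000029457) had 0 and 3 reads in CtrlK and 55 and 1 in DNK, and *cacna1ha*, another T-type pore, had 0 reads in CtrlK and 9 and 3 in DNK.

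Of the 15 accessory calcium channel subunit genes retained, 9 were tested and none was called, with 5 values above 0 and 4 below, with 1 higher and 1 lower at an unadjusted p under 0.05 and a median log2 fold change of 0.20. The gene *cacnb2a*, a beta subunit that brings the pore to the membrane, gave 920 and 1135 reads in CtrlK and 1621 and 1538 in DNK. The replicates were nearly equal after normalization, at 1061 ± 6.48 and 1531 ± 24.2 (SD, n = 2 each). The difference narrowly missed the threshold (log2 fold change 0.53, SE 0.13, edgeR adjusted p = 0.057), and DESeq2 called it (adjusted p = 0.0097). The gene *cacna2d1a*, an extracellular subunit that promotes surface expression, had 1227 and 1644 reads in CtrlK and 1017 and 1227 in DNK. Its normalized counts were lower in both DNK libraries than in both CtrlK libraries, without a call (log2 fold change -0.43, SE 0.17, adjusted p = 0.18).

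Smaller numbers were found for the others. The gene *cacnb1*, the beta subunit of skeletal muscle in mammals, had 58 and 64 reads in CtrlK and 20 and 24 in DNK (log2 fold change -1.56, SE 0.71, adjusted p = 0.24). *CACNG7* had 24 and 21 reads in CtrlK and 54 and 47 in DNK (log2 fold change 1.05, SE 0.76, adjusted p = 0.47), and *CACNG5* had 2 and 0 in CtrlK and 13 and 16 in DNK (adjusted p = 0.26). In mammals these gamma subunits also accompany glutamate receptors. The groups did not overlap for any of these 3 genes, and none of them was called.

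The sodium channels comprised 3 pores and 4 beta subunits. The beta subunit gene *scn4ba* (ENSDARG00000099031), a single-pass protein that modifies gating, had 739 and 442 reads in CtrlK and 46 and 53 in DNK. Both CtrlK values were high but unequal, and the DNK values were alike. The normalized count fell from 632 ± 307 to 48.2 ± 7.35 (SD, n = 2 each), 13.1-fold lower in DNK (log2 fold change -3.71, SE 0.42, edgeR adjusted p = 0.003). It was called with any 1 library left out, with log2 fold changes between -4.13 and -3.10.

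The pore gene *SCN10A* (ENSDARG00000102312) had 126 and 52 reads in CtrlK and 1 and 3 in DNK. In mammals this symbol stands for a channel of sensory neurons, and which zebrafish sodium channel the identifier names was not given in the sources used here. It was almost undetected in DNK and passed the read filter only through CtrlK. The ratio of normalized reads was 47.4 (95% counting interval 18.2 to 176), and the edgeR adjusted p was 0.022. The call was lost without CtrlK1 (adjusted p = 0.23) and without DNK1 (adjusted p = 0.066). The pore gene *scn1lab*, a brain channel of the zebrafish, had 29 and 60 reads in CtrlK and 9 and 27 in DNK (log2 fold change -1.33, SE 0.94, adjusted p = 0.46).

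The other beta subunits were not called. The gene *scn3b* had 164 and 160 reads in CtrlK and 289 and 226 in DNK, without overlap (log2 fold change 0.56, SE 0.32, adjusted p = 0.35). The gene *scn2b* had 33 and 38 reads in CtrlK and 30 and 0 in DNK. The copy *SCN4B* (ENSDARG00000060319), of the same subunit type as *scn4ba*, had 27 and 0 reads in CtrlK and 46 and 6 in DNK, and its groups overlapped (log2 fold change 0.67, SE 1.76, adjusted p = 0.87).

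Cardiomyocyte markers had lower values in DNK, as did the calcium and sodium channel genes called lower. The 11 cardiomyocyte markers found, all tested, summed to 13626 and 4424 CPM in CtrlK1 and CtrlK2 and to 1379 and 182 CPM in DNK1 and DNK2, and none was at 0 in all libraries. Of the 11, 10 had a negative log2 fold change, the median was -3.44, and 0 were called in edgeR with 0 higher and 1 lower at an unadjusted p under 0.05. The value above 0 was that of *myh6*, with 0 and 28 reads in CtrlK and 84 and 30 in DNK. Most reads of the list came from *myl7* and *actc1a* (193175 and 184685 over the 4 libraries), so the sums mostly follow these genes. In normalized counts, the sum of the 11 markers in CtrlK1 was 3.30 times that in CtrlK2. Between the same libraries the ratio was 2.38 for *cacna1c*, 2.05 for *scn4ba*, 2.96 for *SCN10A*, 2.58 for *cacna1g*, 3.44 for *kcnh6a*, 6.12 for *kcnq1.1* and 1.44 for *cacna1aa*. It was 0.914 for *kcne4*, which was not higher in CtrlK1. These genes were picked by hand, and *cacna1g*, *kcnh6a* and *kcnq1.1* were not called. The groups of *kcnq1.1* overlapped, and the other genes of the selection had both DNK libraries below both CtrlK libraries. Some tested genes outside this selection had that pattern as well. Of these, the ratio was 1.11 for *cacnb1*, 1.06 for *scn2b*, 1.48 for *kcnj14* and 1.49 for *KCNJ2*. For *cacna2d1a* it was 0.913, for *scn1lab* 0.591 and for *KCNK5* (ENSDARG00000012390) 0.565.

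Within DNK the channel genes did not share a single order. Relative to CtrlK1, the cardiomyocyte sum was 9.21% in DNK1 and 1.24% in DNK2. The corresponding values were 5.07% and 6.29% for *scn4ba*, 0.646% and 2.09% for *SCN10A*, 0% and 1.74% for *cacna1c*, 14.3% and 22.8% for *kcnh6a*, 18.0% and 16.5% for *cacna1g*, 1.73% and 0% for *cacna1aa*, and 31.2% and 0% for *kcnq1.1*. Of these 7 genes, *cacna1g*, *cacna1aa* and *kcnq1.1* were higher in DNK1 than in DNK2, as the cardiomyocyte sum was, and the other 4 were not. The order is uncertain for most of them. In DNK1 and DNK2, *cacna1aa* had 1 and 0 reads, *cacna1c* 0 and 2, and *SCN10A* 1 and 3, too few to rank the libraries. The reads of *cacna1g* (34 and 29) and *scn4ba* (46 and 53) were close. The part of cardiomyocyte RNA in the lower counts was not tested.

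**Figure D4:**
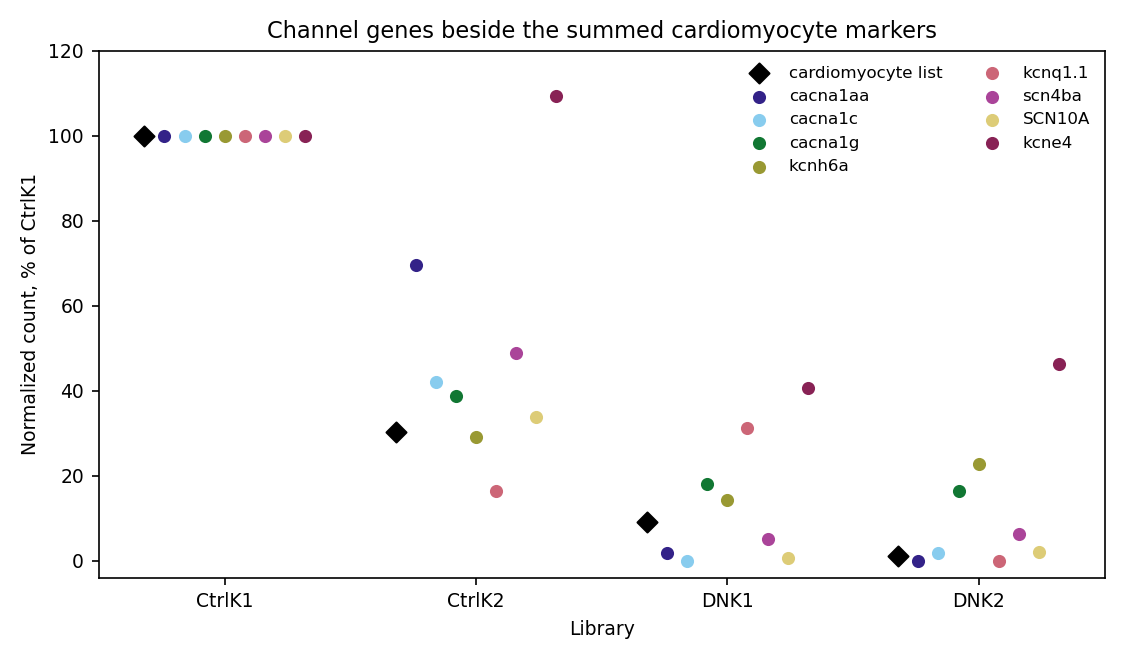
Normalized count in each library as a percentage of CtrlK1, for the summed cardiomyocyte markers (black diamonds) and for 8 channel genes (circles), 1 point per library. The genes were picked by hand among those with a lower mean in DNK. In CtrlK2 the cardiomyocyte sum was at 30.3% of CtrlK1 and *kcne4* at 109%, and in DNK *kcne4* stayed at 40.7% and 46.4%.

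Markers of further cell types were also counted, and their part in the channel results was not tested. The calls among them are small numbers, to be set against the 4.22% and 4.23% of all tested genes called higher and lower. The 9 mural and smooth muscle markers summed to between 175 and 193 CPM in CtrlK and between 80.7 and 100 CPM in DNK, with 2 of 9 called lower (*rgs5a* and *myh11a*). The 17 markers of neurons, neural crest and glia summed to between 24.2 and 28.3 CPM in CtrlK and between 17.2 and 17.4 CPM in DNK. Of these, 5 had no read in any library (*CHAT*, *th*, *mbpa* and 1 copy of *STMN2* among them), and 1 of the 5 tested, a copy of *SNAP25*, was called lower. All 5 tested values were below 0. The other copy of *SNAP25* (ENSDARG00000020609) was not tested and went the other way, with 0 reads in both CtrlK libraries and 68 and 3 in DNK. Most reads of the list came from *mbpb*, with 1816 over the 4 libraries. Erythrocyte markers (4 genes) summed to between 47.8 and 185 CPM in CtrlK and between 3.41 and 14.5 CPM in DNK, with 1 of 4 called lower, and thrombocyte markers (3 genes) to between 7.78 and 17.8 CPM and between 1.13 and 1.74 CPM, with all 3 called lower. Fibroblast and epicardial markers (9 genes) summed to between 1613 and 1824 CPM in CtrlK and between 2603 and 2708 CPM in DNK, with 3 of 8 tested genes called higher. The 3 were *col1a1a*, *col1a2* and *pdgfra*. The list did not move as a whole, with 4 tested values above 0 and 4 below. The latter were *tcf21*, *tbx18*, *postnb* and *dcn*, none of them called. Leukocyte markers (10 genes) had overlapping sums, between 2430 and 2784 CPM in CtrlK and between 2692 and 2715 CPM in DNK, with 4 of 9 tested called lower, and *lyz* was at 0 in every library. Most of these reads came from *cd74a* and *cd74b* (132589 and 118859 over the 4 libraries), so the sums say little of the other markers. Of the 9 tested values, 8 were below 0 and 1 above, and those called lower were *mpx*, *lcp1*, *coro1a* and *ptprc*.

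The 33 channel genes that were not tested had at most 59 reads each over the 4 libraries. Of these, 7 had 0 reads in both CtrlK libraries and 5 had 0 in both DNK libraries, and 8 had reads in 1 library only. The groups did not overlap for 11 of them, with DNK above CtrlK in 4 and below in 7. The share over all genes with as few reads was not computed, so no tendency is read from these numbers. At this depth no difference in these genes could be tested.

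Genes that act with the channels were followed in a list of pumps, exchangers, calcium release and store-operated channels, gap junction genes and channel partners. Of 91 genes found, 55 were tested, with 5 called higher (9.09%, against 4.22% of all tested genes), 3 called lower (5.45%, against 4.23%) and a median log2 fold change of -0.41, and 39 of the 55 values were below 0. The groups were apart for 11 genes with DNK above (20%, against 26.9% of all tested genes) and for 26 with DNK below (47.3%, against 28.6%). The list shares *ryr2b* and *atp2a2a* with the cardiomyocyte markers. Whether the calls in this list hold in the alternative fits, or with a library left out, was not examined.

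Of the calcium genes, *atp2a3*, a pump that returns calcium to the endoplasmic reticulum, had 430 and 581 reads in CtrlK and 1324 and 1081 in DNK (log2 fold change 1.16, SE 0.17, edgeR adjusted p = 0.0093). The store-operated entry channel *orai1a* had 1871 and 2321 reads in CtrlK and 1464 and 1334 in DNK (log2 fold change -0.67, SE 0.12, adjusted p = 0.018). The mechanically gated channel *piezo1*, which senses flow in mammalian endothelium, had 2719 and 3385 reads in CtrlK and 2159 and 2134 in DNK (log2 fold change -0.60, SE 0.11, adjusted p = 0.022). The groups did not overlap for any of these genes. The flow- and stretch-sensitive channel *trpv4* gave 5732 and 7606 reads in CtrlK and 6546 and 5579 in DNK and was not called (log2 fold change -0.23, SE 0.10, adjusted p = 0.21).

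A pair of genes of the DPP6 type, whose products in mammals accompany KCND pores, moved in opposite directions. The gene *dpp6b* had 3 and 0 reads in CtrlK and 364 and 500 in DNK, a ratio of 270 (95% counting interval 92.2 to 1313) with an edgeR adjusted p of 0.0016. The copy *DPP6* (ENSDARG00000076826) had 1262 and 1931 reads in CtrlK and 363 and 485 in DNK (log2 fold change -1.98, SE 0.23, adjusted p = 0.003). The gene *dpp6b* was nearly undetected in CtrlK and passed the read filter only through DNK. The copy *DPP6* was detected in both groups. The remaining called genes were all higher in DNK. The calcium-activated cation channel *trpm4a* had 8 and 9 reads in CtrlK and 135 and 75 in DNK (log2 fold change 3.50, SE 0.70, adjusted p = 0.028), and the polycystin gene *pkd1a* had 1253 and 1540 in CtrlK and 2609 and 2140 in DNK (log2 fold change 0.67, SE 0.13, adjusted p = 0.023). The sodium pump subunit gene *atp1b3a* had 0 reads in CtrlK and 103 and 71 in DNK, at least 26.8-fold higher (adjusted p = 0.012). Both *atp1b3a* and *trpm4a* passed the read filter through DNK.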

How the data were processed

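RNA-seq was performed on sorted *kdrl:eGFP*-positive cells of 2 CtrlK and 2 DNK samples. Per the submitters' processing notes and the methods, reads were checked with FastQC version 0.11.9 and mapped with HISAT2 version 2.2.1 to GRCz11, and uniquely mapped reads were counted with featureCounts version 2.0.1. The authors deposited these raw counts per Ensembl gene without normalization. Whether counting used strand was not given in the sources used here, so overlapping and antisense genes are uncertain, and unique mapping lowers the counts of near-identical copies.

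Symbols were taken from a table of identifiers (29201 of 32520 matched), gene names in the study and RefSeq symbols of GRCz12tu. The members and lists were chosen with earlier results of these data known. Counts were filtered with filterByExpr, scaled with TMM (factors 0.942, 1.009, 1.035 and 1.016 for CtrlK1, CtrlK2, DNK1 and DNK2) and tested with edgeR version 4.0.16 in R version 4.3.3 (robust quasi-likelihood test, group as the only term, Benjamini-Hochberg adjusted p under 0.05). The study used an FPKM filter and DESeq2, and DESeq2 version 1.42.0 served here as an alternative. The standard error is the absolute log2 fold change divided by the square root of F. Normalized counts are scaled to the mean library size. The limit for a group without reads was 3 counts per library. Counting intervals are exact, at a level of 95%, and cover counting error only. The test code was also run on simulated counts with changes in randomly drawn genes. That run was not built to cover genes without reads in a group, and no result here rests on it. Tables and plots came from Python version 3.11.15, pandas version 2.3.3, NumPy version 2.4.6 and Matplotlib version 3.10.9.

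Named by rule were the called channel genes, the gene with the most normalized reads in each family and a list of 40 genes with roles in endothelial or cardiac excitability. Other genes were named after their values were seen. Alternatives were other filters, scalings, dispersions and thresholds, DESeq2, a replicate block, a higher read minimum, only symbols given for the identifier itself, and leaving out each library. Values of some single genes are not reported here.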

Additional observations from a re-analysis of the deposited data

How the results depend on the processing

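The number of channel genes called higher in DNK was 3 and changed to 5 without a filter on low counts (adding *cacnb2a* and *kcnk18*) and to 1 (*kcng1*) at an adjusted p under 0.01. The number called lower was 5 and changed to 7 without a filter on low counts (adding *cacna1g* and *kcnh6a*), to 3 with at least 10 counts in every library (2 shared, with *cacna1g* added), to 2 (*kcne4* and *scn4ba*) at an adjusted p under 0.01, and to 3 with only the symbols given for the identifier itself, which drops *SCN10A* and *cacna1c* by name. Leaving out 1 library gave between 1 and 2 higher and between 2 and 5 lower, with *kcng1*, *kcne4* and *scn4ba* in each. With the replicate number as a block, 3 genes were higher and 4 lower (*cacna1aa* was lost, adjusted p = 0.058). No source pairs the numbers, and deviations of same-numbered libraries correlated at 0.09 over 17151 genes. DESeq2 gave 4 higher and 6 lower, against 7.41% and 8.35% of all genes. For the other alternatives, the share of all tested genes called was not computed. The number of channel genes tested also changed, from 22 with at least 10 counts in every library to 80 without a filter. Whether the counts of called channel genes moved with those of all genes was therefore not tested. Total-count scaling moved the median of all genes from -0.02 to 0.05. The filter of 10 counts in every library left *kcng1* and the genes with a library at or near 0 untested.

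For single genes over all libraries, 174 values kept their direction and side of the threshold, 8 passed it (*cacnb2a* in 4 alternatives, *cacna1g* in 3 and *kcnh6a* in 1), and 1 no longer did. With a library left out, 87 were kept, 16 were no longer past the threshold, 1 passed it, and 8 turned direction, all in genes that were never called. With a library left out, the log2 fold changes of these genes lay between -1.27 and 0.016 for *kcnn4*, between -1.34 and 0.23 for *kcnj13*, between -1.89 and 7.11 for *kcna6a*, between -0.95 and 0.12 for *kcnb2a*, between -6.17 and 7.83 for *kcnv1* and between -1.33 and 7.69 for *SCN4B*. Where an alternative changed a call, the cause was not tested, except that a stricter threshold, fewer names or an untested gene ends a call by construction. Depth limited the 50 genes with fewer than 100 reads, of which 17 could be tested.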

Other observations

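The share of sparse channel genes with most reads in a single library was close to that of all genes. Of the 50 channel genes with 10 to 99 reads, 11 (22.0%) had at least 80% of their reads in 1 library, and over all genes with 10 to 99 reads this was 1028 of 5204 (19.8%). The library was CtrlK1 for 2 of the 11, CtrlK2 for 3, DNK1 for 5 and DNK2 for 1. Among them, *KCNH4* (ENSDARG00000061990) had 35 reads in DNK2 and 0 elsewhere, *CACNA1S* had 55 of its 59 reads in DNK1, and *KCNK10* had 22 reads in DNK1 and 0 elsewhere. The pattern was described after the values were seen, and the 80% level was chosen then.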
